A study of Arabidopsis thaliana with 48 samples.

Results

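Roots of Arabidopsis thaliana that had spent 24 h on medium with ACC were compared with roots that had spent 24 h on control medium, gene by gene and by gene function. ACC (1-aminocyclopropane-1-carboxylic acid) is the compound that plants oxidise to ethylene, so supplying it raises ethylene in the tissue. The arrays were chosen by their titles: 3 for ACC at 24 h and 3 for control at 24 h, 6 of the 48 arrays in the series. All 48 came from roots of seedlings 6 days old, grown in continuous light on a nylon mesh over sucrose medium. At time 0 the mesh was moved to fresh control medium or to medium with 1 µM ACC, and roots were taken at 8 times from under 5 minutes to 24 h, in triplicate. The labels name no mutant, transgene or ecotype for any group, so the ACC is the single stated difference between the 2 groups. They do not say whether the 3 arrays of a group came from separate cultures. The p-values therefore measure the spread between arrays of a group, which may be technical. In the limma fit below, that spread is estimated from all 48 arrays.

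Ethylene is perceived by receptors in the endoplasmic reticulum that, without the hormone, keep the kinase CTR1 active and the pathway off. When ethylene binds them, CTR1 is silenced, EIN2 carries the signal to the nucleus, and EIN3 and its relatives switch on target genes, among them genes whose products dampen the pathway again. In seedling roots the hormone is known for shortening the main root, through less cell elongation, and for promoting root hairs.

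Values are log2 signals of Affymetrix probe sets as deposited, so a difference of 1 is a 2-fold change. Of 22739 probe sets tested with limma over all 48 arrays, 1237 passed a Benjamini-Hochberg adjusted p of 0.05 at 24 h, which is 5.44% of those tested. Of these, 504 were higher on ACC (2.22% of those tested) and 733 were lower (3.22%), so falls made up 59.3% of the calls. At an unadjusted p of 0.05 the number was 3891. The median difference over all probe sets was -0.01, and the typical standard error (SE) of a 24 h difference was 0.14, a precision limited by the number of arrays. The total depended on single arrays. Leaving out control replicate 1 left 494 calls (206 rises, 288 falls). Leaving out control replicate 3 left 788 (314 and 474), and leaving out ACC replicate 3 left 607 (218 and 389), so falls outnumbered rises in each.

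The excess of falls lay among small differences. At a difference of at least 1 the directions were even, with 188 rises and 187 falls, while below 0.5 there were 77 rises and 160 falls. Large changes ran the other way. Of the rises, 35 reached 2 and 8 reached 3; of the falls, 11 reached 2 and 0 reached 3. Probe sets that rose had a median control level of 7.5 and a median ACC level of 8.59, and those that fell had 8.35 and 7.51. The control arrays enter both the levels and the called differences, so the lower control level of the rises partly follows from the selection.

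**Figure D1:**
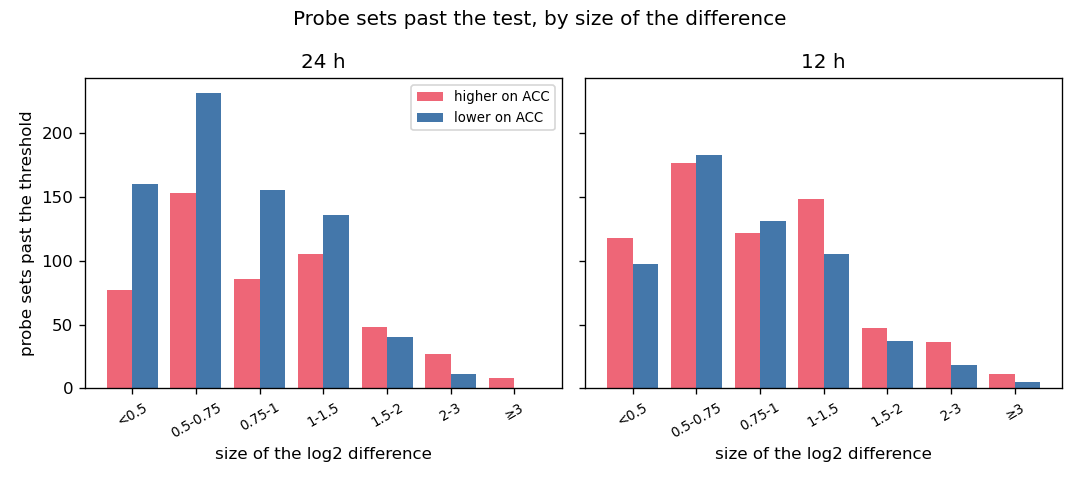
Number of probe sets past the adjusted p of 0.05 (vertical axis) by the size of the log2 difference between ACC and control roots (horizontal axis), at 24 h (left) and 12 h (right). Red bars are rises and blue bars falls; at 24 h falls are the more numerous in each class up to 1.5 and rises in each class from 1.5 upward, while at 12 h the classes from 1 upward hold more rises.

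At 12 h, 1234 probe sets passed (5.43%), with 658 rises (2.89%) and 576 falls (2.53%), so falls were 46.7% of the calls there. At 8 h 1113 passed (4.89%), 550 higher (2.42%) and 563 lower (2.48%). At 4 h 951 passed (4.18%), 469 higher (2.06%) and 482 lower (2.12%). Falls were thus 50.6% and 50.7% of the calls at those times, below their share at 24 h. The 24 h time was chosen with its excess of falls known, and the share of falls was not tested between times. No single probe set was shown to differ between 24 h and 12 h. A test of the difference between the 24 h and the 12 h effects, which share no arrays, called 0 of 22739 in limma, with 730 at an unadjusted p of 0.05, and also 0 in each alternative run. The rises called at both times numbered 284, which is 56.3% of those at 24 h and 43.2% of those at 12 h. The falls called at both numbered 350, which is 47.7% and 60.8%. Of the 504 rises at 24 h, 498 had a positive difference at 12 h as well, and of the 733 falls, 707 had a negative one.

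On control medium the roots changed little by this test: 24 h against 0 h gave 0 calls in limma, with 794 at an unadjusted p of 0.05. On ACC, 24 h against 0 h gave 1980 calls (8.71%), of which 826 were higher (3.63%) and 1154 lower (5.07%). These comparisons share arrays with the 24 h contrast and are given only side by side with it. Each named gene below is described by its ACC against control difference, and its change on each medium since 0 h is given where it adds to that.

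Array-level values were also compared, and among them the GAPDH difference described below separated the groups. Control replicate 2 was the control array nearest to the ACC arrays in 263 of all 504 rises and 506 of all 733 falls. Among the largest differences with 1 gene symbol, described below, it was nearest in 10 of the 15 rises and 11 of the 15 falls. Without it, 1322 probe sets passed. The 3′ minus 5′ difference of the GAPDH control probe sets, a sign of RNA integrity or labelling, read 1.02, 1.41 and 1.18 in the ACC arrays and 0.91, 0.91 and 0.29 in the control arrays. The groups do not overlap, and the exact two-sided permutation test gave p = 0.1, the smallest that 3 arrays against 3 allow. For actin and ubiquitin the same exact permutation test gave p = 0.4 and p = 0.3. With the GAPDH difference as a covariate 776 probe sets passed, 370 higher and 406 lower, and 601 of the 1237 were among them. Its part in the results was not tested beyond this. Genes of photosynthesis, taken as markers of green tissue, gave 0 calls in limma among 8 (2 at an unadjusted p of 0.05), with a summed log2 signal of 9.95 to 10.58 on ACC and 9.87 to 10.24 on control medium, and a median difference of 0.39. Since these are whole roots, fewer cells of a type and less RNA per cell cannot be told apart in any of the results.

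The ethylene pathway itself held a few raised genes. As background for each statement of overlap below, all ACC arrays lay above all control arrays in 9.75% of probe sets and below them in 12.3%. All gene lists, also those not said to be drawn up after the values were seen, were chosen with earlier results of these data known. The shares called in a list are therefore descriptive. ARL (ARGOS-LIKE, AT2G44080), of a family of small membrane proteins that lower ethylene sensitivity, read 10.52, 10.75 and 10.94 on ACC and 8.42, 9.01 and 8.67 on control medium. Every ACC array was above every control array, by 2.03 ± 0.28 (SE, n = 3 against 3, adjusted p = 8.7e-06), or 4.10-fold. RTE1 (AT2G26070), which promotes signalling by the receptor ETR1 and so holds the pathway back, read 9.93, 10.13 and 10.09 against 8.49, 8.89 and 8.67. It rose by 1.37 ± 0.15 (adjusted p = 2.89e-07), again without overlap. EIN3 (AT3G20770), the transcription factor at the end of the pathway, which is controlled mainly through its protein's stability, differed by 0.18 ± 0.16 (adjusted p = 0.65). These were 2 rises among 6 measured pathway genes (33.3%, beside 2.22% of all probe sets), and both calls held without each single array. The other members were RTH, ETP2 and AT5G10120. No receptor, CTR1 or EIN2 was measured in the list, so it describes these members and not the pathway. An ACC oxidase gene, AT1G12010, coding for an enzyme of the kind that turns ACC into ethylene, read 8.90, 9.41 and 9.62 against 7.74, 7.96 and 7.80. It was 2.79-fold higher (1.48 ± 0.33, adjusted p = 0.004) and was 1.56, 2.49 and 2.30 higher at 4, 8 and 12 h. After subtraction of the 0 h difference between the media its adjusted p in limma was 0.118.

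Of the 3 largest rises, 2 were in genes for class III peroxidases, secreted enzymes that use hydrogen peroxide to oxidise phenolics and can stiffen or loosen the wall. AT5G19890 read 10.51, 10.38 and 11.88 on ACC and 5.96, 6.29 and 6.16 on control medium. ACC roots were thus 27.6-fold higher (4.79 ± 0.71, adjusted p = 2.82e-05), from a control level that was -0.02 from its own 0 h value. AT1G49570 read 11.02, 11.22 and 12.18 against 6.60, 7.10 and 7.67, a 20.4-fold rise (4.35 ± 0.77, adjusted p = 3.0e-04). In both genes the third ACC array was the highest and the groups were far apart. AT5G19890 had been as high at 12 h (5.01) and 8 h (4.94), and AT1G49570 stood at 1.18, 2.72, 3.47 and 4.35 at 4, 8, 12 and 24 h.

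Peroxidases moved in both directions at 24 h. Among 55 measured members 10 rose and 6 fell, which is 18.2% and 10.9% beside the 2.22% and 3.22% of all probe sets, with a median difference of 0.08. The other rises were AT5G39580, AT3G03670, Prx37, AT1G71695, AT3G49960, AT5G64110, AT4G11290 and PRXR1, at between 0.51 and 2.56. AT3G03670 read 9.07, 7.47 and 9.11 against 6.13, 6.67 and 6.18, so one ACC array lay well below the other pair yet above every control array. The falls were AT2G35380 (-1.68 ± 0.22), AT5G51890 (-1.32 ± 0.16), AT1G68850 (-1.03 ± 0.25), AT5G66390 (-1.02 ± 0.18), AT3G01190 (-0.93 ± 0.22) and AT2G18980 (-0.61 ± 0.15). AT5G51890 showed the fall plainly, at 9.06, 9.18 and 8.90 on ACC against 10.41, 10.16 and 10.54, and its difference was -0.27, -0.45, -0.82 and -1.32 at 4, 8, 12 and 24 h. In AT1G68850 the groups overlapped, at 8.27, 9.05 and 8.36 against 10.15, 9.03 and 9.60, and its adjusted p without control replicate 1 was 0.143. Of the 16 peroxidase calls, 8 held without each single array and 13 with the GAPDH covariate; AT5G39580 (adjusted p = 0.183 without control replicate 1) and AT3G49960 (0.104 without control replicate 3) were among those that did not. UPB1, a transcription factor known to repress peroxidase genes in the root, was 0.94 ± 0.21 higher (adjusted p = 0.005); it was looked up after its value was seen.

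Genes for CAP proteins, the secreted family that includes the defence marker PR-1, were among the largest rises. AT4G33720 read 10.55, 9.98 and 11.62 on ACC and 5.83, 6.15 and 6.17 on control medium. This was a 25.4-fold rise (4.67 ± 0.38, adjusted p = 3.81e-10), and the groups were over 3 log2 units apart at their nearest. AT4G07820 read 11.08, 11.12 and 11.54 against 7.44, 8.75 and 7.85, a rise of 3.24 ± 0.51 (adjusted p = 5.95e-05). AT4G25790 rose by 1.68 ± 0.41 (adjusted p = 0.010) and AT1G50060 by 1.09 ± 0.30 (adjusted p = 0.026). In all, 4 of 18 measured CAP genes rose (22.2%, beside 2.22% of all probe sets) and 0 fell, and in 8 the ACC arrays were all above the control arrays, beside 9.75% of all probe sets. That list was drawn up after the values were seen. The calls for AT4G07820 and AT4G33720 held without each single array; AT1G50060 had an adjusted p of 0.199 without control replicate 1 and AT4G25790 of 0.064 without control replicate 3. A list of 21 measured defence genes gave 5 rises (23.8%, beside 2.22% of all probe sets) and 0 falls, but most of its members are CAP genes already counted. Its members outside the CAP list were AT2G43590, AT2G43580, PDF1.2 and PDF1.4, and it held no measured gene of camalexin synthesis. Its rises included the same 4 CAP genes. The fifth was PDF1.4, at 0.94 ± 0.25, whose call was lost without ACC replicate 3 (adjusted p = 0.167) and with the GAPDH covariate (0.108).

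Wall structure and phenolic genes gave further large rises. The extensin-like genes AT1G26250 and AT1G26240 code for hydroxyproline-rich structural wall proteins. AT1G26250 read 11.57, 9.61 and 10.62 against 6.29, 8.70 and 6.58, a rise of 3.41 ± 0.72 (adjusted p = 0.002) with control replicate 2 within 1 unit of the lowest ACC array. AT1G26240 read 8.78, 8.32 and 9.12 against 5.79, 6.99 and 6.53, a rise of 2.31 ± 0.49 (adjusted p = 0.003). These genes are close relatives, and sharing of signal between their probe sets was not tested. CCOAMT (AT1G67980), a caffeoyl-CoA O-methyltransferase-type enzyme of phenolic metabolism, read 9.12, 10.24 and 11.15 against 6.04, 8.36 and 7.82. Its rise of 2.76 ± 0.77 (adjusted p = 0.027) was lost on leaving out any 1 of 4 arrays, and its adjusted p was 0.237 without control replicate 1 and 0.191 with the GAPDH covariate. AT2G39980, an acyltransferase of the BAHD type, was among the tightest rises, at 10.30, 9.92 and 10.07 against 7.39, 7.18 and 7.36 (2.78 ± 0.30, adjusted p = 1.84e-07). Its relative AT5G01210, named after its values were seen, rose by 1.72 ± 0.23 from 9.40, 9.47 and 9.45 to 11.09, 11.18 and 11.23. Both had the same size of difference from 4 h on, at 2.96, 3.13, 2.94 and 2.78 in AT2G39980 and 1.72, 1.92, 1.86 and 1.72 in AT5G01210.

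**Figure D2:**
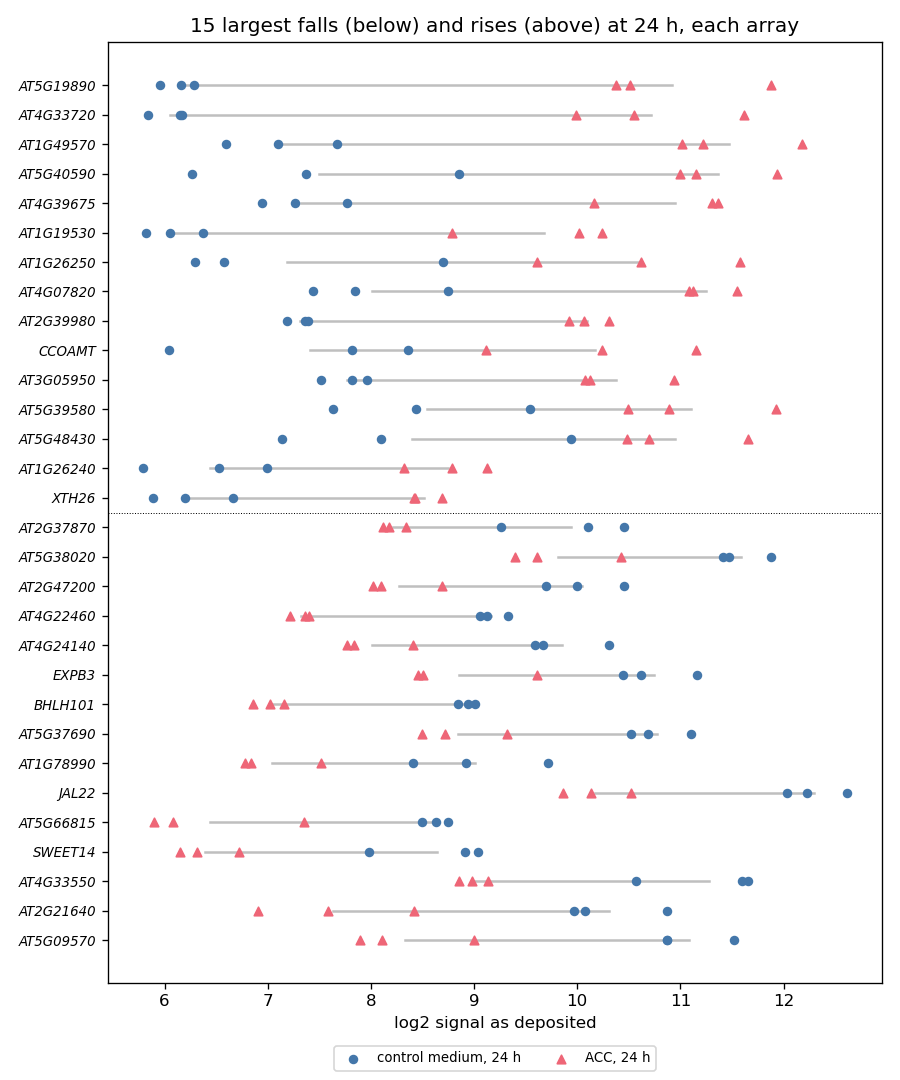
Log2 signal as deposited (horizontal axis) of the 15 genes with the largest rises (above the dotted line) and the 15 with the largest falls (below it) at 24 h, one row per gene, with blue circles for the 3 control arrays, red triangles for the 3 ACC arrays and a grey line between the group means. In no row do the groups overlap, which the choice of genes required; the rises reach 4.79 and the falls -2.75.

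The remaining large rises were of other kinds. AT5G40590, a cysteine- and histidine-rich protein of the DC1 type, read 11.00, 11.15 and 11.94 against 6.26, 8.86 and 7.37 (3.87 ± 0.57, adjusted p = 2.55e-05). AT3G05950, a germin-like protein of the cupin family in the cell wall, read 10.08, 10.12 and 10.93 against 7.51, 7.82 and 7.97, a rise of 2.61 ± 0.45 (adjusted p = 2.31e-04). AT5G48430, an aspartyl protease-like protein, read 10.48, 10.69 and 11.66 against 7.14, 9.94 and 8.10. Its control arrays were spread over nearly 3 units, and the rise of 2.55 ± 0.62 (adjusted p = 0.009) had an adjusted p of 0.132 without control replicate 1 and 0.121 with the GAPDH covariate. Among genes named after their values were seen, the RING-type ubiquitin ligase ATL8 rose by 2.01 ± 0.33 and the xyloglucan synthase-family gene CSLC12 by 1.10 ± 0.21. The glycine-rich protein AT2G05530 rose by 2.0 ± 0.19, from 6.65, 6.96 and 6.40 to 8.75, 8.62 and 8.63.

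Genes known from low oxygen split. AT4G39675 read 10.16, 11.36 and 11.31 on ACC and 6.94, 7.77 and 7.26 on control medium, a 12.3-fold rise (3.62 ± 0.52, adjusted p = 1.5e-05). AT1G19530 read 8.78, 10.01 and 10.24 against 5.82, 6.38 and 6.05, a 12.1-fold rise (3.60 ± 0.55, adjusted p = 3.79e-05). Both belong to the core set that low oxygen raises in Arabidopsis across cell types. Of 23 measured genes of that set 3 rose, 13.0% beside 2.22% of all, and 0 fell. The third was AT1G33055, at 1.23 ± 0.33, which was lost without control replicate 1 (adjusted p = 0.116). The median of the 23 was 0.24, with 14 positive and 9 negative differences, so the 2 large rises were not shared by the set. The calmodulin-like gene CML38, also in the set, differed by 1.67 ± 0.76 (adjusted p = 0.24).

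Root hair genes leaned one way with few calls. XTH26 (AT4G28850), a xyloglucan-modifying enzyme expressed in root hairs, read 8.43, 8.69 and 8.42 on ACC and 6.66, 6.20 and 5.89 on control medium. It rose 4.80-fold (2.26 ± 0.41, adjusted p = 4.2e-04) and the call held without each single array. The peroxidase AT3G49960 was the other root hair gene called, at 10.82, 10.86 and 10.74 against 9.29, 9.27 and 8.87 (1.67 ± 0.46, adjusted p = 0.025). Of 11 measured root hair genes 2 rose (18.2%, beside 2.22% of all probe sets) and 0 fell, 10 differences were positive, and the median was 0.83 beside -0.01 over all probe sets. In 9 of the 11 every ACC array was above every control array. AT5G04960, a pectin methylesterase-type enzyme (1.03 ± 0.42, adjusted p = 0.169), GH9C1, an endoglucanase (0.94 ± 0.33, 0.097), and EXPA18, an expansin of root hairs (0.85 ± 0.37, 0.203), were among those that did not pass. Their control levels were 0.54, 0.39 and 0.64 above the 0 h control, and those of XTH26 and AT3G49960 were 0.63 and 0.79 above it, none of which passed the test. After subtraction of the 0 h difference between the media neither call passed in limma, at adjusted p of 0.079 for XTH26 and 0.607 for AT3G49960. For AT5G04960, GH9C1 and EXPA18 it was 0.765, 0.69 and 0.958. The lean was thus not shown to have arisen after 0 h. This limit was not particular to root hair genes: of all 124 named calls, 48 passed after that subtraction.

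**Figure D3:**
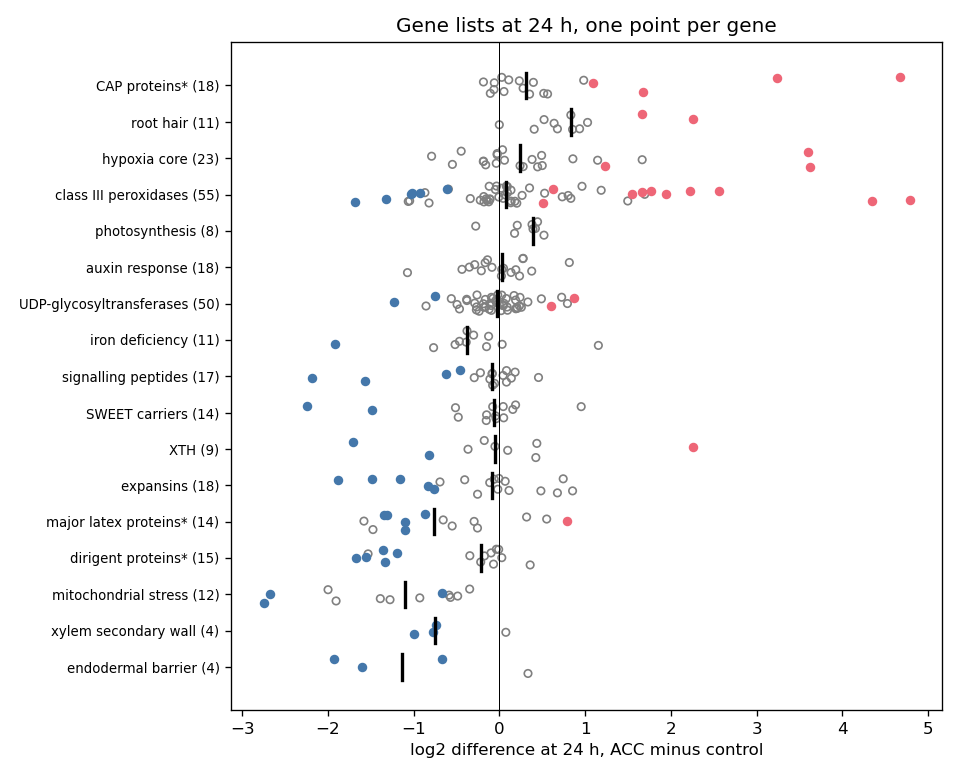
Log2 difference between ACC and control roots at 24 h (horizontal axis) for the genes of 17 lists, one point per gene, with the number measured in brackets. Filled points passed the adjusted p of 0.05 (red rises, blue falls), open points did not, and the black bar is the list's median. An asterisk marks lists drawn up after the values were seen, and all lists were chosen with earlier results of these data known. The medians of the endodermal (-1.14), xylem (-0.76) and mitochondrial (-1.10) lists lie to the left of 0 and that of the root hair list (0.83) to the right.

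Among probe sets with 1 gene symbol that passed without overlap of the groups, the 2 largest falls were in genes of mitochondrial stress. AT5G09570, a small cysteine-rich protein of the CHCH type found in mitochondria, read 9.0, 8.11 and 7.89 on ACC and 10.87, 10.87 and 11.52 on control medium. It fell 6.73-fold (-2.75 ± 0.61, adjusted p = 0.004). AT2G21640, a widely used marker of oxidative stress, read 8.42, 7.58 and 6.91 against 9.97, 10.08 and 10.87 (-2.67 ± 0.67, adjusted p = 0.011). In both genes all ACC arrays were below all control arrays, and the difference had been -2.07 and -3.22 at 12 h. On control medium they stayed near their 0 h levels, at -0.05 and -0.40, and on ACC they were -3.23 and -3.43 from 0 h.

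Of 12 genes that mitochondrial dysfunction raises in other studies, 3 fell and 0 rose, 25% beside 3.22%. All 12 differences were negative, with a median of -1.10, and in 9 the ACC arrays were all below the control arrays, as in 12.3% of all probe sets. The third call was NDB2, an alternative NAD(P)H dehydrogenase of the mitochondrial inner membrane, at -0.67 ± 0.18 (adjusted p = 0.021). Its paralogue NDB4 was at -1.39 ± 0.55 (adjusted p = 0.156). The small heat shock protein gene AT5G51440 was at -1.90 ± 0.60 (0.053) and AT2G41730 at -2.0 ± 0.88 (0.212). In these 4 the groups did not overlap either: AT2G41730 read 10.06, 10.03 and 9.30 against 11.66, 11.87 and 11.86, while its spread over the whole series gave the larger SE. The call for AT5G09570 held without each single array, that for AT2G21640 had an adjusted p of 0.095 without ACC replicate 3, and that for NDB2 of 0.117 without control replicate 3.

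Genes of the endodermal barrier gave 3 falls among 4 measured (75%, beside 3.22% of all probe sets). The endodermis is the cell layer that seals the vascular cylinder with Casparian strips of lignin and with suberin, a polyester of fatty acids and phenolics. AT5G37690, a GDSL-type esterase/lipase linked to suberin, read 8.71, 9.32 and 8.50 on ACC and 11.11, 10.52 and 10.69 on control medium. It fell 3.80-fold (-1.93 ± 0.23, adjusted p = 6.12e-07). AT2G23540, of the same enzyme family, read 9.77, 10.70 and 9.93 against 12.04, 11.48 and 11.68 (-1.60 ± 0.21, adjusted p = 3.79e-06). In both genes ACC replicate 2 and control replicate 2 were the arrays nearest to each other, without meeting. GSO1 (AT4G20140), the receptor kinase through which Casparian strip integrity is sensed, fell by 0.67 ± 0.16 (adjusted p = 0.006; 0.081 without control replicate 1). With the GAPDH covariate its difference was -0.41 (adjusted p = 0.126). The fourth, AT4G34600, codes for one of the peptide ligands of that receptor and was at 0.33 without passing, and at -0.15 with that covariate. With few genes measured, this describes these members and not the pathway. AT4G24140, an alpha/beta hydrolase of the bodyguard type, a family linked to cutin and suberin, fell as well, at 7.77, 8.41 and 7.84 against 10.31, 9.59 and 9.66 (-1.85 ± 0.29, adjusted p = 6.25e-05).

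Dirigent proteins, which steer the coupling of phenolic radicals and include proteins needed for Casparian strip lignin, gave 5 falls. AT2G39430 read 8.87, 8.61 and 8.64 on ACC and 10.16, 10.38 and 10.27 on control medium (-1.56 ± 0.18, adjusted p = 2.89e-07). AT4G13580 read 9.95, 9.94 and 10.04 against 11.23, 11.44 and 11.29 (-1.34 ± 0.18, adjusted p = 3.79e-06). Both had tight groups over a unit apart. AT4G11190 (-1.67 ± 0.50), AT2G21100 (-1.36 ± 0.24) and AT1G55210 (-1.19 ± 0.15) completed the 5 falls among 15 measured genes (33.3%, beside 3.22% of all probe sets), with 0 rises and a median of -0.22. The list was drawn up after the values were seen, and 4 of the 5 calls held without each single array; AT4G11190 had an adjusted p of 0.205 without ACC replicate 2 and, at -1.09, of 0.278 with the GAPDH covariate.

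Growth-related wall genes held another group of falls. Expansins, which loosen the wall during growth, gave 5 falls and 0 rises among 18, 27.8% beside 3.22%, with a median of -0.09. EXPB3 (AT4G28250) read 9.61, 8.46 and 8.50 on ACC and 11.17, 10.44 and 10.62 on control medium (-1.88 ± 0.39, adjusted p = 0.002), and EXPB1 (AT2G20750) fell by 1.48 ± 0.30 (adjusted p = 0.002). Both calls held without each single array. EXPA4 (-1.16 ± 0.32), EXLA2 (-0.83 ± 0.26) and EXPA8 (-0.76 ± 0.19) were lost without some, with adjusted p of 0.159 without ACC replicate 3 for the first and of 0.299 and 0.135 without control replicate 1 for the others. None of these 3 passed with the GAPDH covariate (adjusted p = 0.107, 0.157 and 0.136). Of 9 xyloglucan endotransglucosylase/hydrolases 1 rose (11.1%, beside 2.22% of all probe sets), the root hair gene XTH26, and 2 fell (22.2%, beside 3.22%). XTH21 read 6.86, 6.67 and 6.60 against 8.47, 8.26 and 8.52 (-1.71 ± 0.25, adjusted p = 1.69e-05), so XTH26 and XTH21 moved apart within one family. XTH32 fell by 0.82 ± 0.18 (adjusted p = 0.005; 0.065 without control replicate 1).

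For the xylem secondary wall 4 genes were measured and 3 fell (75%, beside 3.22% of all probe sets). IRX15-L (AT5G67210) and IRX15 (AT3G50220) are needed for xylan, the main hemicellulose of that wall. IRX15-L read 7.99, 7.75 and 7.64 against 8.65, 8.73 and 8.98 (-0.99 ± 0.15, adjusted p = 5.8e-05). IRX15 fell by 0.74 ± 0.17 (adjusted p = 0.007) and AT4G18425 by 0.78 ± 0.18 (adjusted p = 0.008), with adjusted p of 0.059 and 0.069 without control replicate 1. GUT2, a glycosyltransferase of xylan backbone synthesis named after its value was seen, fell by 0.62 ± 0.13 (adjusted p = 0.002). With the GAPDH covariate IRX15-L passed while IRX15, AT4G18425 and GUT2 did not, at adjusted p of 0.074, 0.059 and 0.052.

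Sugar carriers and small secreted peptides gave falls and 0 rises. SWEET14 (AT4G25010), a sugar exporter of the SWEET family, read 6.72, 6.32 and 6.15 on ACC and 8.91, 7.98 and 9.04 on control medium. It fell 4.75-fold (-2.25 ± 0.37, adjusted p = 1.3e-04), and SWEET13 (AT5G50800) by 1.49 ± 0.27 (adjusted p = 4.4e-04). Both calls held without each single array. They were the 2 falls among the 14 measured genes of the sugar list, all of them SWEET carriers (14.3%, beside 3.22% of all probe sets). SWEET2, a vacuolar member, was at 0.95 ± 0.33 (adjusted p = 0.090). AT3G21670, a carrier of the nitrate and peptide transporter family named after its value was seen, fell by 1.64 ± 0.28 (adjusted p = 2.45e-04). AT5G66815, the gene of the secreted peptide CEP5, read 7.35, 5.90 and 6.09 against 8.75, 8.50 and 8.63, so ACC replicate 1 lay over a unit above the other ACC arrays and over a unit below the controls. It fell by 2.18 ± 0.29 (adjusted p = 5.99e-06).

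Among 17 measured genes for small secreted peptides 4 fell and 0 rose, 23.5% beside 3.22%. After CEP5 came RALFL27, of the family of alkalinizing peptides, at 8.98, 8.35 and 8.54 against 10.56, 9.96 and 10.06 (-1.57 ± 0.32, adjusted p = 0.002). CLE41 (-0.62 ± 0.18), whose peptide keeps vascular stem cells from becoming xylem, and CLE26 (-0.46 ± 0.11) were smaller. The calls of CEP5 and RALFL27 held without each single array, while CLE41 had an adjusted p of 0.312 without control replicate 1 and CLE26 of 0.084 without ACC replicate 3 and 0.115 with the GAPDH covariate.

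The other large falls were in genes of several kinds. AT4G33550, of the protease inhibitor and lipid-transfer protein family, read 8.85, 9.14 and 8.98 on ACC and 11.59, 10.57 and 11.65 on control medium (-2.28 ± 0.40, adjusted p = 2.50e-04). AT4G22460 and AT2G37870, of the same family, fell by 1.84 ± 0.29 and 1.73 ± 0.45; the second had an adjusted p of 0.125 without control replicate 1 and 0.088 with the GAPDH covariate. The jacalin-type lectin gene JAL22 (AT2G39310) was at 10.14, 9.87 and 10.52 against 12.61, 12.23 and 12.04. Its difference was -2.12 ± 0.53 (adjusted p = 0.011), but -1.27 with the GAPDH covariate (adjusted p = 0.182), and its adjusted p was 0.076 without control replicate 1. The BAHD-type acyltransferase AT1G78990 fell by 1.97 ± 0.25 (adjusted p = 3.07e-06), so members of that enzyme family moved in both directions. The methyltransferase-type gene AT5G38020 fell by 1.78 ± 0.38 (adjusted p = 0.003), and at -1.08 with the covariate it did not pass (adjusted p = 0.082). AT2G47200, whose role is not given here, fell by 1.78 ± 0.31. Among 14 genes of major latex protein type, a list drawn up after the values were seen, 5 fell (35.7%, beside 3.22% of all probe sets) and 1 rose (7.14%, beside 2.22%); none of the 6 calls held without each single array.

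Iron genes gave one strong fall. BHLH101 (AT5G04150), a transcription factor raised by iron shortage, read 7.03, 7.16 and 6.86 on ACC and 9.01, 8.84 and 8.94 on control medium, with each group tight. It fell 3.77-fold (-1.91 ± 0.45, adjusted p = 0.008). It was the single call among 11 measured genes of the iron deficiency response (9.09%, beside 3.22% of all probe sets), whose median was -0.38 with 9 negative differences. AT1G47400, coding for a small peptide of the iron response, had been -2.38 at 12 h and stood at -0.77 ± 0.55 at 24 h (adjusted p = 0.533), and its groups overlapped. AT3G13610, an enzyme of scopoletin synthesis, was at 1.15 ± 0.49 (adjusted p = 0.188). ZIP9, a metal carrier of the ZIP family, was 0.81 ± 0.16 higher (adjusted p = 0.001); it was named after its value was seen.

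Most hormone, stress and growth lists showed few calls. The auxin list held 18 genes, with 0 calls in limma (2 at an unadjusted p of 0.05) and a median of 0.03. Besides response genes it held the auxin synthesis genes YUC2, YUC4, YUC6 and YUC11, so its median does not describe response genes alone. In this list GH3.17, an auxin-conjugating enzyme, was at -1.07 ± 0.41 (adjusted p = 0.13), and its relative GH3.3 at 0.82 ± 0.56 (0.51). Core histones (5), calcium signalling (7), redox enzymes (6), starch and glycolysis (6), phenylpropanoid and flavonoid synthesis (4), pectin enzymes (4), abscisic acid (4), gibberellin (3) and the cell cycle (3) also had 0 calls in limma, with 4 of their 42 genes at an unadjusted p of 0.05. Few members were measured in these lists, so a change elsewhere in them would not have been seen. The 24 measured cytochrome P450 genes were mostly of the CYP71B subfamily, so they do not describe P450 genes at large. Among them 4 rose (16.7%, beside 2.22% of all probe sets) and 0 fell. The largest rise was that of CYP718, at 1.34 ± 0.33 (adjusted p = 0.010, and 0.061 without ACC replicate 2). Only 1 of the 4 calls, CYP51G2, held without each single array, and 2 held with the GAPDH covariate. UDP-glycosyltransferases gave 2 rises and 2 falls among 50, close to the background.

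A list of proteases and senescence genes gave 4 falls among 35 (11.4%, beside 3.22% of all probe sets). Each fall was in a serine carboxypeptidase-like gene, but so are most measured members of that list, so this follows largely from its make-up. The falls were scpl29 (-0.91 ± 0.27), scpl20 (-0.87 ± 0.20), scpl48 (-0.79 ± 0.17) and scpl28 (-0.76 ± 0.18). The 1 rise among the 35 (2.86%, beside 2.22% of all probe sets) was SAG101, a lipase-like regulator of defence and senescence. It read 7.48, 7.32 and 7.45 against 6.67, 6.70 and 6.93 (0.65 ± 0.12, adjusted p = 5.2e-04). scpl29 had an adjusted p of 0.145 without control replicate 3 and scpl28 of 0.083 without control replicate 1. With the GAPDH covariate scpl29 was at -0.48 (adjusted p = 0.359), and scpl20 and scpl28 had adjusted p of 0.094 and 0.079, so scpl48 and SAG101 were the calls that held. WRKY53, a transcription factor of leaf senescence and defence, was the rise among 6 WRKY genes (16.7%, beside 2.22% of all probe sets). It rose by 1.06 ± 0.25 (adjusted p = 0.008), and the call was lost without ACC replicate 3 (adjusted p = 0.098) and with the GAPDH covariate (0.081). GSTU25, a glutathione transferase, was the fall among 14 (7.14%, beside 3.22% of all probe sets), at -1.25 ± 0.35 (adjusted p = 0.025). Its adjusted p was 0.152 without ACC replicate 3 and 0.061 with the GAPDH covariate. Among 21 beta-glucosidase genes 1 rose and 1 fell (4.76% each, beside 2.22% and 3.22% of all probe sets). BGLU46 was 1.66 ± 0.41 higher (adjusted p = 0.011, and 0.10 without control replicate 3), and was at 0.93 with the GAPDH covariate (0.196). BGLU40 was at -0.42 ± 0.12 (adjusted p = 0.029), with adjusted p of 0.213 without ACC replicate 3 and 0.251 with the covariate.

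Some effects differed between 24 h and the earlier times. A limma test of the 24 h effect against the 4 h effect called 18 of 22739 probe sets (0.0792%), 5 more positive (0.022%) and 13 more negative (0.0572%) at 24 h. Of these, 7 have a single gene symbol. The CAP protein gene AT4G33720 stood at 0.82, 1.28, 3.95 and 4.67 at 4, 8, 12 and 24 h, and its 24 h effect exceeded that at 4 h by 3.85 ± 0.54 (adjusted p = 4.9e-04). The germin-like gene AT3G05950 stood at -0.43, 0.64, 2.09 and 2.61, and its effects differed by 3.04 ± 0.64 (adjusted p = 0.041). The glycine-rich protein gene AT2G05530 stood at 0.12, 0.88, 1.85 and 2.0, with a difference of 1.88 ± 0.27 (adjusted p = 4.9e-04). None of the 3 passed at 4 h in the limma fit, and all were at 1.85 or more by 12 h.

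On the negative side the suberin-linked AT5G37690 stood at -0.17, -1.03, -1.01 and -1.93 at 4, 8, 12 and 24 h (24 h minus 4 h -1.75 ± 0.32, adjusted p = 0.013). The peroxidase AT2G35380 stood at -0.01, -0.51, -0.60 and -1.68 (-1.67 ± 0.31, adjusted p = 0.013). AT5G09480, a hydroxyproline-rich glycoprotein gene, stood at 0.11, -0.46, -0.42 and -1.62 (-1.73 ± 0.35, adjusted p = 0.039). AT1G56320, whose role is not given here, stood at 0.31, -0.41, -0.51 and -1.25 (-1.56 ± 0.32, adjusted p = 0.039). These 4 had no clear difference at 4 h and reached their lowest value at 24 h. Against 12 h none of them passed. The test of 24 h against 8 h called 2 probe sets (0.0088%), AT4G33720 (3.39 ± 0.54, adjusted p = 0.008) and 1 without a gene symbol. Of the 18 calls against 4 h, 3 passed without ACC replicate 2 at 4 h, 4 without control replicate 1 at 24 h, 4 without control replicate 3 at 4 h, and 5 without ACC replicate 3 at 24 h.

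**Figure D4:**
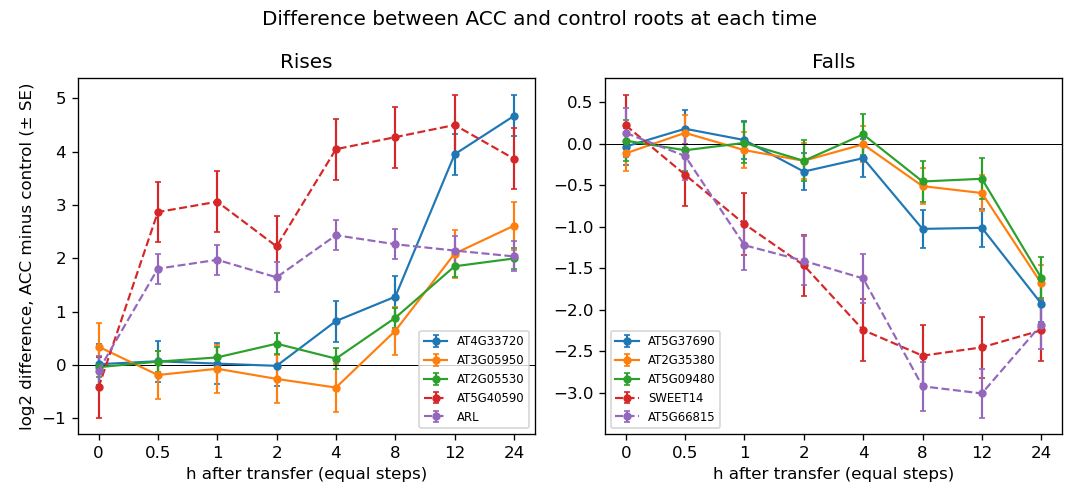
Log2 difference between ACC and control roots (vertical axis, ± SE) at each time from 0 to 24 h (horizontal axis, in equal steps, not to scale) for 5 genes that rose and 5 that fell. AT4G33720, AT3G05950 and AT2G05530 (left) and AT5G37690, AT2G35380 and AT5G09480 (right) lie between -0.43 and 0.82 at 4 h and are 1.62 or more from 0 at 24 h, while ARL and SWEET14 are already at 2.43 and -2.25 at 4 h.

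Other genes were already at their 24 h size by 4 h. ARL stood at 2.43, 2.26, 2.14 and 2.03 at 4, 8, 12 and 24 h, and AT5G40590 at 4.05, 4.27, 4.50 and 3.87. SWEET14 stood at -2.25, -2.55, -2.45 and -2.25. None of these passed the test between 24 h and an earlier time, and their SEs at a single time were 0.28, 0.57 and 0.37.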

How the data were processed

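Root RNA was hybridised to Affymetrix arrays by a 3′ labelling protocol, per the labels' protocols, and the authors deposited one table with a log2 signal per probe set and array for all 48 arrays. How the authors normalized these log2 values, and with what software, is not given in the sources used here; their log base is read from the values. From them, 64 AFFX control probe sets and 7 with an exact 0 were left out, which left 22739. limma 3.58.1 in R 4.3.3 was fitted with 1 mean per group of medium and time over all 48 arrays (32 residual degrees of freedom), and p-values were adjusted by Benjamini-Hochberg over all of them, called at 0.05. Every adjusted p in the text comes from this fit or from an alternative of it. 3′ minus 5′ differences were compared with an exact permutation test. Precision is limited by 3 arrays per group. Probe sets were named where the platform annotation gives 1 gene symbol (13513; 503 have several and 8730 are not listed); where that symbol is a locus code, the role in the text is background knowledge. Named genes were the 15 largest rises and the 15 largest falls that passed without overlap of the groups, up to 5 members of each of 52 lists with the largest differences, those past a test between times, and ARL, RTE1 and EIN3; other called members of a list, and genes said to be named after their values were seen, were added. A list counts 1 probe set per gene, the one with the highest mean. Of the 52 lists, 43 had a measured gene; 6 more were added after the values were seen. The members and lists were chosen with earlier results of these data known. The steps were tested on simulated data. Alternatives were quantile normalization, a filter on low values, an intensity trend, array weights, a replicate block, a minimum difference of 1, fewer arrays in the fit, a 3′ minus 5′ covariate, subtraction of the 0 h difference, and leaving out single arrays.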

Additional observations from a re-analysis of the deposited data

Results flagged for a closer look

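The 24 h effect differed from the 4 h effect, by a limma test of the difference itself, in 18 probe sets, of which 11 have no single gene symbol (9 more negative and 2 more positive at 24 h). The named ones that were more negative at 24 h were the suberin-linked AT5G37690, by -1.75 ± 0.32 (SE), the hydroxyproline-rich glycoprotein gene AT5G09480, by -1.73 ± 0.35, the peroxidase AT2G35380, by -1.67 ± 0.31, and AT1G56320, by -1.56 ± 0.32. Those more positive were the glycine-rich protein gene AT2G05530, by 1.88 ± 0.27, the germin-like gene AT3G05950, by 3.04 ± 0.64, and the CAP protein gene AT4G33720, by 3.85 ± 0.54. AT4G33720 also differed from its 8 h effect, by 3.39 ± 0.54. For none of them was the difference between 24 h and 12 h past the threshold.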

How the results depend on the processing

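The 24 h count of 1237 (504 higher, 733 lower) stayed within 1.5 times under quantile normalization (1285), the filter on low values (1209), the intensity trend (1197), the fit on 24 h arrays alone (1282, of which 825 were among the 1237) and without the array whose label names auxin (1209). It moved to 2356 with array weights (1065 higher, 1291 lower), 375 at a minimum difference of 1 (188 and 187), 776 with the GAPDH covariate (370 and 406, 52.3% lower against 59.3%) and 344 after subtraction of the 0 h difference (104 and 240, 69.8% lower). Leaving out single arrays gave 494 to 1322 calls, 206 to 506 higher and 288 to 816 lower. The replicate numbers were not shown to pair the samples: at 24 h, same-numbered arrays deviated together with correlations of 0.1, 0.11 and -0.15. A replicate block gave 1689 calls, with all 124 named calls kept. The 2 calls of 24 h against 8 h (both higher) became 1 (higher) with quantile normalization and with the block, 31 with array weights (29 lower) and 0 (0 higher) on the arrays of the 2 times, and single omissions gave 0 to 3, with 0 to 2 in each direction. The 18 calls against 4 h (13 lower) became 28 with the block (23 lower), 14 with array weights (8 lower) and 1 on the arrays of the 2 times (1 higher, 0 lower); single omissions gave 3 to 33, with 2 to 7 higher and 1 to 26 lower. The causes were not tested. No named call changed direction in the alternatives run; differences that had not passed did, such as that of AT4G34600. Of the 30 largest named differences, 24 held without each single array, 24 with the covariate and 17 after subtraction of the 0 h difference. Of all 124 named calls, 62, 82 and 48 did. With 3 arrays a group, differences near the median SE of 0.14 could not be told from the spread.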

Other observations

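Further wall and nutrient genes were measured at 24 h. Among 15 endoglucanases of family GH9, enzymes that cut wall glucans, 2 fell (13.3%, beside 3.22% of all probe sets). They were GH9B8, by 1.34 ± 0.31 (SE), and GH9B13, by 0.77 ± 0.23. In the same family the root hair gene GH9C1 was at 0.94 ± 0.33 without passing. Of 22 TBL genes, a family of wall polysaccharide acetyltransferases, 2 fell (9.09%, beside 3.22% of all probe sets) and 1 rose (4.55%, beside 2.22%). TBL36 fell by 1.24 ± 0.26 and TBL30 by 0.67 ± 0.16, and TBL21 rose by 0.59 ± 0.18. Of 12 germin-like genes 2 rose (16.7%, beside 2.22% of all probe sets) and 1 fell (8.33%, beside 3.22%). The rises were AT3G05950 and AT5G39130 (1.07 ± 0.26, at 5.20, 5.97 and 5.69 on ACC against 4.43, 4.28 and 4.94), and AT3G10080 fell by 0.79 ± 0.19. These 3 lists were drawn up after the values were seen, and of their 8 calls those of TBL36 and AT3G05950 held without each single array. APS4, an ATP sulfurylase of sulfate assimilation, rose by 1.16 ± 0.34 as 1 of 3 sulfate genes. The purple acid phosphatase gene PAP20 rose by 0.53 ± 0.15 as 1 of 3 genes of low phosphate. Each is 33.3% of its list, beside 2.22% of all probe sets. Both calls were lost without ACC replicate 3, with adjusted p of 0.225 and 0.136 in limma.

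Succinate and isocitrate dehydrogenase genes, looked up after their values were seen, gave small differences in both directions. The succinate dehydrogenase subunit gene SDH2-1 was 0.48 ± 0.13 lower, the isocitrate dehydrogenase genes ICDH and IDH-VI 0.52 ± 0.14 and 0.41 ± 0.12 lower, and SDH1-2 0.47 ± 0.14 higher. None of these 4 calls held without each single array, and a second probe set of SDH2-1, with a lower mean signal, was at -0.29 (adjusted p = 0.225). The growth regulators TCP15 (0.61 ± 0.15 lower) and LHW (0.52 ± 0.15 higher), the second a vascular transcription factor, were of similar size, and their calls were lost without control replicate 3, with adjusted p of 0.073 and 0.132 in limma.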
